A study of Homo sapiens with 6 samples.

Results

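LINC symbols are given to long non-coding RNA genes that lie mostly between protein-coding genes and have no name of their own. The deposited table of 40111 rows held 1364 rows with a symbol made of LINC and digits, LINC00894 left out. Of these, 221 reached 0.5 FPKM, a read level scaled by gene length and library depth, in at least 3 of the 6 libraries, and they are the expressed LINC RNAs described here. The other 1143 did not reach 0.5 FPKM in as many as 3 libraries, though some were above it in single libraries. The 221 rows carry 220 distinct symbols, because LINC01605 has 2 gene identifiers in the table. They were chosen by their measured FPKM in all 6 libraries, so the level itself is given as a description, and what was compared is the difference between groups.

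The libraries are labelled BE(2)-M17, a human neuroblastoma line, and come from 3 control samples with the genotype label NC and 3 samples with LINC00894 knocked down through a CRISPR-Cas9 vector. The study asked what LINC00894, itself a long non-coding RNA, does in these cells, and its title names ATF3, a stress-induced transcription factor, as a gene whose expression it regulates. The sources used here do not give the guide, the Cas9 control or whether the cells were a clone or a pool. Separate cultures are not named in the labels either, so p-values measure the spread between libraries, which may be technical only.

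For LINC00894 the controls gave 2.00, 2.24 and 2.21 FPKM and the knockdowns 1.10, 1.30 and 0.867 FPKM, so every knockdown library lay below every control. ATF3 fell by 1.01 on the log2 scale, with an adjusted p of 0.0415 by limma. Depth ran from 22898079 to 48089716 assigned reads. Control 1 stood apart from controls 2 and 3: HSPA6, an inducible heat shock chaperone, had 161 FPKM there, only 0.830 and 1.18 FPKM in the other controls, and 195, 155 and 161 FPKM after knockdown. The labelled cell type was not borne out by all of its defining markers. PHOX2A was listed at 0 in 5 of the 6 libraries and MYCN, an oncogene amplified in many neuroblastomas, lay between 0.162 and 0.267 FPKM, whereas GATA3, ISL1 and HAND2 lay between 1.26 and 5.66 FPKM. Summed over 8 red cell genes, the level of the 3 controls was 6.50, 4.09 and 66.3 FPKM and that of the knockdowns 852, 374 and 439 FPKM, and 3 of the 8 genes rose. For 6 neutrophil and monocyte genes it was 2.21, 1.12 and 250 FPKM and 50.1, 146 and 167 FPKM. Lymphocyte, glia and fibroblast or endothelium lists summed to between 0.209 and 3.40 FPKM in every library. The part of these markers in any difference below was not tested, and in bulk RNA a change in the number of cells of a type and a change in RNA per cell cannot be told apart.

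Long non-coding RNAs are transcribed by RNA polymerase II, and many are capped, spliced and given a poly(A) tail, so an oligo-dT library captures them. Some act on neighbouring genes in cis, some act in the cytoplasm, for example by binding proteins or microRNAs, and many have no known role. Most are less abundant than messenger RNAs, and the nuclear exosome degrades many of them. Where one starts beside a protein-coding gene on the opposite strand, both can be made from 1 shared promoter region, and where one starts just past the end of a gene on the same strand, transcription that runs on past that gene can cross it.

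Promoter windows show how unlike the starts of these RNAs are. LINC01560, which fell, is shown with ZNF41, the zinc finger gene beside it on the opposite strand, which rose, and with LINC00641, the most abundant of the expressed LINC RNAs. The sequences are RefSeq's on GRCh38.p14, each reads 5′ to 3′ from 250 bases before to 50 bases after the RefSeq start, and capitals mark CpG pairs. The LINC01560 window, chrX:47482466-47482765 on the plus strand, is 61% G or C with 27 CpG pairs, a number that 27.9% of 27305 promoters reach. The ZNF41 window, chrX:47483173-47483472 on the minus strand, holds 14, the median of all promoters. The LINC00641 window, chr14:21206851-21207150 on the minus strand, is 39% G or C with 2 CpG pairs, and 19.0% of promoters have as few.
LINC01560: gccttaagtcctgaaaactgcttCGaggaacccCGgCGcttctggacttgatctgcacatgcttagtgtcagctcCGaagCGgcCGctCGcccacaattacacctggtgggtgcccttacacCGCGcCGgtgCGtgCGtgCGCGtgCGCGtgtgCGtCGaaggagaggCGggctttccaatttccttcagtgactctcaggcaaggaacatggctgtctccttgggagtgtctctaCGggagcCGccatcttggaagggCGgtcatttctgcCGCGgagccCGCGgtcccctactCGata
ZNF41: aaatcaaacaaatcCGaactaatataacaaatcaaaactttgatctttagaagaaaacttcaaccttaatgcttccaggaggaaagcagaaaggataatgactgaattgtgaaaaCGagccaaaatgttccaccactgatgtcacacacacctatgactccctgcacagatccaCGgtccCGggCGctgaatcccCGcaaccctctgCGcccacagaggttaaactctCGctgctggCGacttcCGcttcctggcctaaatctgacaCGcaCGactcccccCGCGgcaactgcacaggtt
LINC00641: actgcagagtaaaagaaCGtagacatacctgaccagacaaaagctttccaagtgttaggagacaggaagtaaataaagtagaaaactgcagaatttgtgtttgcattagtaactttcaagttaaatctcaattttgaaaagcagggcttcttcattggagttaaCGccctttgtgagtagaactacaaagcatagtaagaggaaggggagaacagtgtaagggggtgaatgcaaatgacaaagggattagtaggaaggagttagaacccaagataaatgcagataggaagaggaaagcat

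Of the 220 symbols, 135 matched a RefSeq promoter. Their median G and C content was 60.3%, beside 58.3% over all 27305 promoters, and the median CpG count was 14 in both. On either strand, the cAMP response element TGACGTCA, which ATF and CREB factors bind, stood in 4 of the 135, or 2.96%, beside 1.98% of all promoters. The AP-1 motif TGANTCA stood in 7.41% beside 7.76%, the amino acid response motif TGATGNAA in 3.70% beside 3.67% and the heat shock element in 0 beside 0.487%. None of the 4 motifs contains another. The 4 RNAs with the cAMP response element were LINC00265, LINC00630, LINC01409 and LINC02527. None of the 3 windows printed above holds any of the 4 motifs. LINC00630 is shown for its match, here in capitals, in the window chrX:102768903-102769202 on the plus strand.
LINC00630: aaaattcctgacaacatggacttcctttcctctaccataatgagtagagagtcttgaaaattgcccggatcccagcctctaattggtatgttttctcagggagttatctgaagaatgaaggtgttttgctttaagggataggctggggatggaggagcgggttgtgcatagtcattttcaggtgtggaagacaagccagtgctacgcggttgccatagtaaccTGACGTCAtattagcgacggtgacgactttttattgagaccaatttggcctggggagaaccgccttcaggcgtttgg
LINC00630 stood at 3.23, 3.87 and 3.73 FPKM in the controls and at 2.62, 2.75 and 2.82 FPKM in the knockdowns. All 3 knockdowns lay below all 3 controls, with a log2 fold change of -0.39 ± 0.11 (SE) and an adjusted p of 0.0697 by limma, which did not pass. LINC00630 was picked for its sequence after its values were known.

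GENCODE 29 held 220 of the 221 rows, LINC02348 being the exception, and classed 168 as lincRNA, 23 as antisense, 12 as processed transcripts and 8 as transcribed unprocessed pseudogenes. The median gene had 3 exons in its longest-spliced transcript, with a range of 1 to 24, and a union of exons of 1694.5 bases. Chromosome 1 held 38 of them, chromosome 2 held 17 and chromosome 3 held 15. The nearest protein-coding gene lay a median of 11472 bases away. The body of a protein-coding gene overlapped 28 of them. That count includes LINC02693, the 1 row that GENCODE 29 classes as protein-coding, which was matched to its own body at a distance of 0. Its nearest other protein-coding gene, KCNJ12, lay 8509 bases away. A start within 1 kb of a protein-coding gene on the opposite strand was found in 20 of the LINC RNAs. The libraries keep no record of strand, so reads from overlapping genes cannot be told apart. Any exon base was shared with another gene in 56 rows, and more than 10% of the exon bases in 16. The length of the authors' gene model, worked out from their values, lay within 5% of the GENCODE 29 length in 129 rows and was more than 2 times that length in 38, so the level of those depends on an annotation that the sources used here do not give.

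The expressed LINC RNAs were low. Their median of mean FPKM was 1.18, beside 6.30 for 12752 protein-coding genes and 1.11 for 2496 other long non-coding RNA genes that met the same level. Their summed level was 422, 393 and 402 FPKM for controls 1, 2 and 3 and 453, 457 and 446 FPKM for the knockdowns, between 0.143% and 0.169% of all FPKM. The knockdown sums lay above the control sums. Without LINC00641 the sums were 394, 388 and 397 FPKM and 409, 424 and 411 FPKM, and the groups still did not overlap. The rule took in 8 rows through the knockdowns alone and 1 through the controls alone. Part of the order of the sums can therefore follow from the choice of rows. The sum over the 145 rows that reached the level in all 6 libraries is not given here.

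LINC00641 had the highest mean, 24.9 FPKM. Controls 1, 2 and 3 gave 28.5, 4.75 and 5.05 FPKM, and the knockdowns 43.4, 32.7 and 35.2 FPKM, with 1247 to 5784 reads a library. Control 1 stood close to the knockdowns, and controls 2 and 3 far below all the rest. It differed by a log2 fold change of 2.05 ± 0.67 (SE) with an adjusted p of 0.0964 by limma, and without control 1 it was 2.89 with an adjusted p of 0.00032.

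Of the next most abundant, several were lower in control 1 and in the knockdowns than in controls 2 and 3. LINC01605 under its longer gene model (ENSG00000253161) had 6.06, 15.4 and 12.3 FPKM as control and 5.54, 7.58 and 6.07 FPKM after knockdown. Its second identifier (ENSG00000253414), a short model inside the first gene on chromosome 8, was at 9.62, 17.1 and 18.8 FPKM and 9.71, 13.6 and 11.2 FPKM. Neither passed, with adjusted p-values of 0.193 and 0.394 by limma, and the groups overlapped in both. LINC01033 was at 6.68, 11.2 and 12.8 FPKM and 5.71, 6.43 and 6.19 FPKM, a log2 fold change of -0.68 ± 0.23 with an adjusted p of 0.106, all 3 knockdowns being lower than all 3 controls. LINC01411 was at 3.84, 7.66 and 9.79 FPKM and 5.48, 5.18 and 5.49 FPKM, and here control 1 was the lowest library of all. Without control 1, both LINC01605 rows, LINC01033 and LINC01411 passed as lower in the knockdowns, with log2 fold changes of -1.10, -0.64, -0.96 and -0.68.

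LINC00674, LINC00342, LINC02315 and LINC02506 complete the 10 highest together with LINC00106, described below. LINC00674, a transcribed pseudogene on chromosome 17, stayed between 6.49 and 8.61 FPKM in all 6 libraries, with a log2 fold change of 0.05 ± 0.12. LINC00342 ran from 4.03 to 6.57 FPKM in the controls and from 6.28 to 7.12 FPKM in the knockdowns, and LINC02315 from 5.47 to 7.84 FPKM and from 4.27 to 5.99 FPKM. Both overlapped between groups. LINC02506 was at 6.26, 5.99 and 6.21 FPKM and 4.16, 5.88 and 4.68 FPKM, so all 3 knockdowns were lower, with a log2 fold change of -0.33 ± 0.13 and an adjusted p of 0.139 by limma, which did not pass.

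Limma compared the groups on log2(FPKM + 0.1) over all 18548 genes that met the same level, and a gene passed at an adjusted p under 0.05. Of the 221 expressed LINC RNAs, 5 rose and 2 fell in the knockdown. That is 3.17%, beside 6.2% of all genes tested, with 4.14% rising and 2.06% falling, so the share among the LINC RNAs was not above that of all genes. Among the other long non-coding RNA genes 4.21% passed. The median SE of a log2 fold change was 0.249 for the LINC RNAs, 0.292 for the other long non-coding RNA genes and 0.120 for protein-coding genes. The groups did not overlap in 78 of the LINC RNAs, 54 of them higher and 24 lower in the knockdown, which is 35.3% beside 38.2% of all genes. An unadjusted p under 0.05 was found in 66, or 29.9% beside 32.6%. The median log2 fold change was 0.14, beside 0.07 over all genes. Among the LINC RNAs with a mean under 1 FPKM, 2 of 92 rose, between 1 and 2 FPKM 1 of 66 rose, and at 2 FPKM or more 2 of 63 rose and 2 fell.

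LINC00680 had the smallest p. It is a transcribed unprocessed pseudogene on the minus strand of chromosome 6, and 7.38% of its exon bases are shared with the read-through gene LINC00680-GUSBP4. It was at 2.24, 1.66 and 1.90 FPKM in the controls and at 3.77, 3.95 and 3.93 FPKM in the knockdowns. The knockdown libraries lay close together and well above every control. The log2 fold change was 0.98 ± 0.13 (SE) with an adjusted p of 0.0335 by limma.

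LINC00665, a spliced lincRNA on chromosome 19, was at 2.34, 2.33 and 2.84 FPKM in the controls and at 3.68, 3.65 and 3.69 FPKM in the knockdowns, on 834 to 1491 reads. The groups did not overlap, and the knockdowns were nearly equal. The log2 fold change was 0.54 ± 0.11 with an adjusted p of 0.0452. Its implied length of 12167 bases exceeds the 7201 bases of GENCODE 29. ZFP14, a zinc finger gene that ends 2735 bases upstream on the same strand, was at 2.69, 2.24 and 2.29 FPKM and 1.87, 1.99 and 1.86 FPKM, the opposite order, with a log2 fold change of -0.32 and an adjusted p of 0.125 that did not pass.

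LINC01291 lies on chromosome 2, 24789 bases past HK2, the gene of the glycolytic enzyme hexokinase 2, on the same strand. It was at 0.556, 0.513 and 0.521 FPKM in the controls and at 1.07, 1.08 and 1.01 FPKM in the knockdowns, so the levels within each group were nearly equal. Its log2 fold change was 0.87 ± 0.19 with an adjusted p of 0.0498. HK2 also rose, from 26.1, 17.2 and 17.4 FPKM to 32.7, 36.9 and 33.8 FPKM, with a log2 fold change of 0.79 ± 0.17 and an adjusted p of 0.0478 by limma. For HK2, control 1 stood between the other controls and the knockdowns, whereas LINC01291 in control 1 was at the level of controls 2 and 3.

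LINC02569 and LINC01058 rested on few reads. LINC02569, an antisense gene on chromosome 6 whose nearest same-strand neighbour upstream is HLA-E, was at 0.722, 0.611 and 0.489 FPKM in the controls and at 1.23, 1.58 and 1.43 FPKM in the knockdowns, on 18 to 38 reads a library. It rose by a log2 fold change of 1.10 ± 0.21 with an adjusted p of 0.0410. HLA-E, an MHC class I gene 22061 bases away, was at 60.0, 64.6 and 54.9 FPKM and 48.3, 50.8 and 52.9 FPKM and did not pass. LINC01058 on chromosome 13 had 2, 4 and 5 reads in the controls and 14, 12 and 8 in the knockdowns, or 0.152, 0.186 and 0.258 FPKM and 1.37, 0.945 and 0.620 FPKM. It passed the level only through the knockdowns, so a difference between groups was built into its choice. Its log2 fold change was 1.81 ± 0.37 with an adjusted p of 0.0463.

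LINC01560 and LINC00106 fell, and both lie on chromosome X. LINC01560 is a single exon of 1253 bases at chrX:47483571-47484823 in GENCODE 29 on GRCh38. It was at 3.57, 3.04 and 3.55 FPKM in the controls and at 2.06, 2.20 and 1.94 FPKM in the knockdowns, and its log2 fold change was -0.68 ± 0.11 with an adjusted p of 0.0379. ZNF41, on the opposite strand and 625 bases away, rose: it was at 2.56, 2.76 and 2.95 FPKM and 4.15, 4.16 and 3.91 FPKM, a log2 fold change of 0.55 ± 0.09 with an adjusted p of 0.0379. Neither gene's groups overlapped, so the pair, whose promoter windows are printed above, moved in opposite directions in all 3 knockdowns. The RefSeq starts behind those windows differ from the GENCODE 29 starts, and in RefSeq the starts of the 2 gene bodies overlap on opposite strands. The authors' model had the length of the GENCODE 29 exon, which shares no base with ZNF41.

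LINC00106 lies in the pseudoautosomal region at chrX:1396427-1399402, between SLC25A6, a mitochondrial ADP/ATP carrier, and ASMTL. It was at 8.02, 10.7 and 10.2 FPKM in the controls and at 4.80, 6.68 and 4.99 FPKM in the knockdowns. Control 1 was the lowest control and knockdown 2 the highest knockdown, with no overlap. Its log2 fold change was -0.81 ± 0.17 with an adjusted p of 0.0457 by limma.

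**Figure D1:**
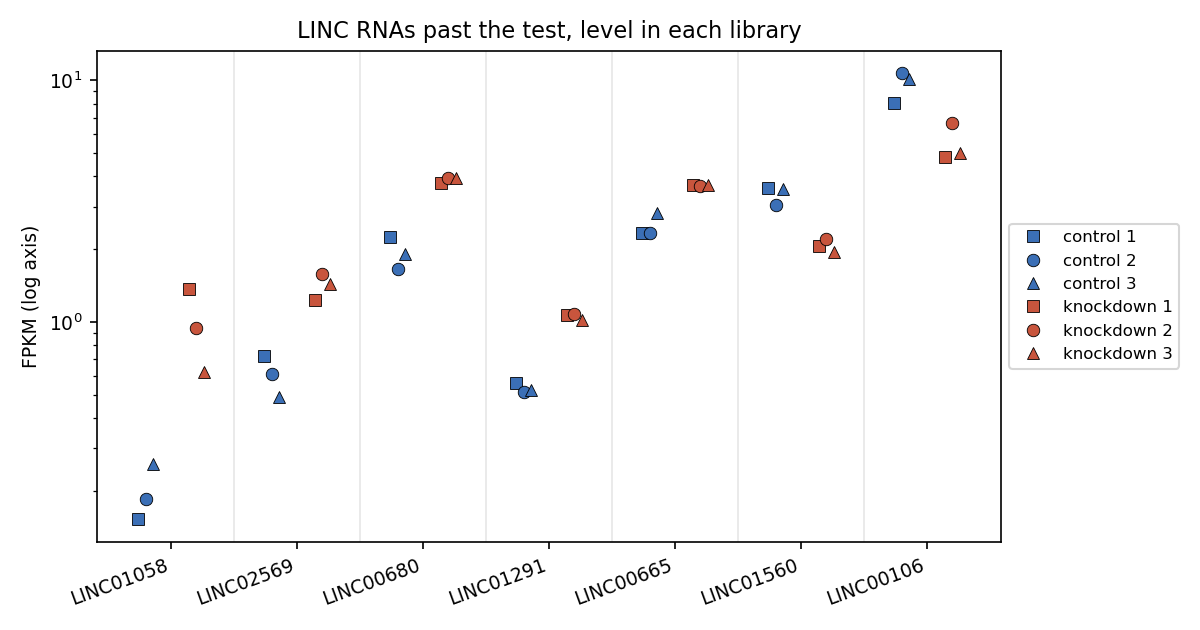
The 7 LINC RNAs past the test, with FPKM on a log axis, 1 point for each library, controls in blue and knockdowns in red, and the marker shape giving the replicate number. In each of the 7 the knockdown points lie apart from the control points, above them for 5 and below them for LINC01560 and LINC00106.

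All 7 calls rest on every library except control 1. With control 2, control 3 or any 1 knockdown left out, 0 of the 221 passed, with 35 to 46 at an unadjusted p under 0.05, and the 7 had adjusted p-values between 0.0919 and 0.186. Over all genes 0 passed as well, with 3676 to 4530 at an unadjusted p under 0.05. Without control 1 all 7 kept their direction and passed, with adjusted p-values between 0.00106 and 0.0142. The calls then came to 53 higher and 24 lower, or 24% and 10.9% of the LINC RNAs, beside 28% and 15.7% of all genes and 43.6% in either direction. With median-of-ratios size factors in place of total reads, LINC00665, LINC01291 and LINC01058 did not pass, with adjusted p-values of 0.0618, 0.0557 and 0.0511, and the calls over all genes were 475 higher and 486 lower in place of 768 and 382.

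**Figure D2:**
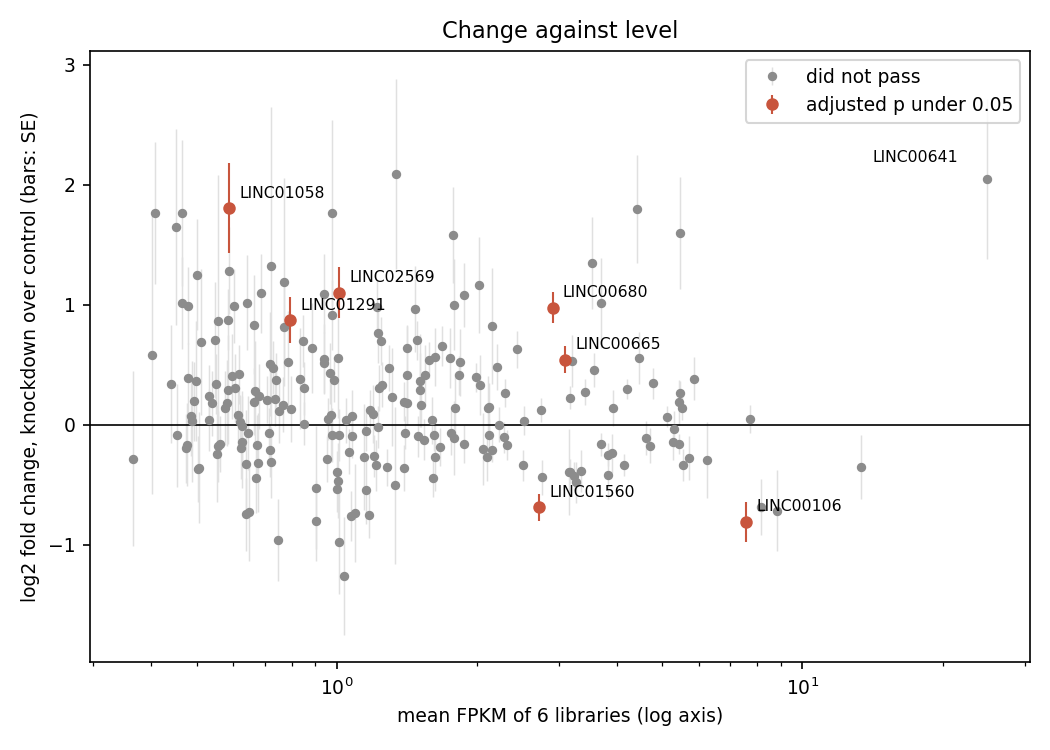
The log2 fold change of knockdown over control of each of the 221 LINC RNAs (bars, SE) against the mean FPKM of the 6 libraries on a log axis, with those past the test in red. The red points do not have the largest changes, apart from LINC01058: many low RNAs with larger changes and wider bars did not pass.

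A log2 fold change of at least 1 in size was seen in 25 of the LINC RNAs, or 11.3% beside 8.32% of all genes. Among the other long non-coding RNA genes it was seen in 13.1%, so the share in the LINC RNAs was not above theirs. Of the 25, 24 were higher in the knockdown and 1, LINC02220 on 2 to 30 reads a library, was lower. Only LINC01058 and LINC02569 among the 24 passed. In 21 of the 24, control 1 and all 3 knockdowns lay above controls 2 and 3. Part of that order, the knockdowns above the controls, follows from choosing RNAs by their rise. The same share among all genes with such a rise is not given here. In 8 of the 24 some library had under 10 reads, in 6 the groups overlapped, and 5 met the level through the knockdowns only.

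The largest of these changes were in LINC01963 and LINC00641. LINC01963, a single-exon gene on chromosome 2 that lies 10742 bases past the end of XRCC5, the gene of a DNA end-binding protein of the Ku complex, was at 1.78, 0.145 and 0.147 FPKM in the controls and at 2.33, 1.63 and 2.01 FPKM in the knockdowns. Control 1 lay within the range of the knockdowns, while controls 2 and 3 had 22 and 20 reads. Its log2 fold change was 2.09 ± 0.79 with an adjusted p of 0.128 by limma, and without control 1 it was 3.07 with an adjusted p of 0.00073.

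LINC02818 on chromosome 1 was at 4.06, 1.12 and 1.31 FPKM in the controls and at 5.94, 7.60 and 6.40 FPKM in the knockdowns, LINC02870 on chromosome 10 at 1.49, 0.112 and 0.136 FPKM and 1.18, 1.57 and 1.36 FPKM, and LINC01730 on chromosome 20 at 0.446, 0.0247 and 0.110 FPKM and 0.932, 0.544 and 0.742 FPKM. Their log2 fold changes of 1.80, 1.77 and 1.76 did not pass. In each of the 3, control 1 stood well above controls 2 and 3, and in LINC02870 it lay among the knockdowns. Without control 1 these log2 fold changes were 2.35, 2.71 and 2.35, and all passed. With all 6 libraries, limma-voom on the recovered reads called all 5 of these RNAs as higher, with adjusted p-values of 0.0328 for LINC01963, 0.0363 for LINC00641, 0.0243 for LINC02818, 0.0459 for LINC02870 and 0.0492 for LINC01730. In either direction limma-voom called 14.93% of the LINC RNAs, beside 16.97% of all genes. The 5 were chosen for their large changes in these data. Their calls by limma-voom and without control 1 are therefore not independent evidence of a rise. LINC01730 met the level of 0.5 FPKM only through the knockdowns, so its rise was built into its choice.

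**Figure D3:**
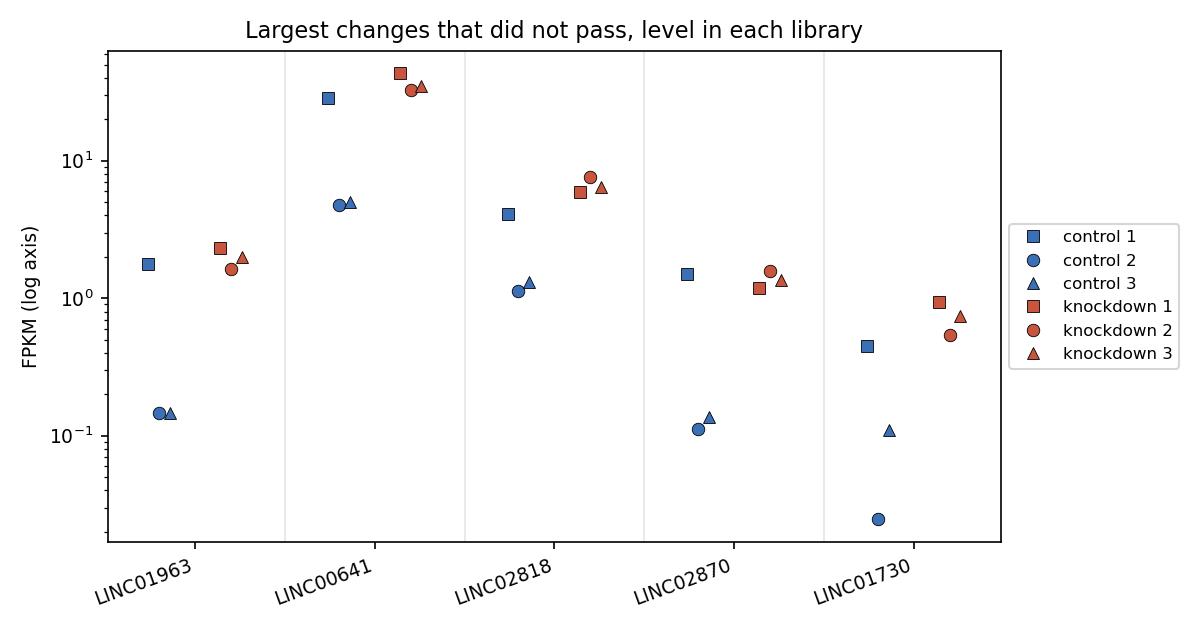
The 5 LINC RNAs with the largest changes that did not pass, with FPKM on a log axis and 1 point for each library. In each of the 5 the blue square of control 1 lies near the red knockdown points, and controls 2 and 3 lie far below.

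This shape was common, among the LINC RNAs as among all genes. Control 1 and all 3 knockdowns lay above controls 2 and 3 in 67 of the 221, or 30.3% beside 32.5% of all genes tested, and below them in 35, or 15.8% beside 20.3%. In 127 of the LINC RNAs control 1 was closer to the mean of the knockdowns than to that of the other controls, or 57.5% beside 60.8%. Among the RNAs with this rising shape were LINC00839, at 3.68, 1.42 and 1.25 FPKM and 5.43, 4.43 and 4.99 FPKM, and LINC02340, at 5.75, 1.72 and 1.60 FPKM and 8.79, 8.29 and 6.68 FPKM, both named after their values were seen. LINC02340 starts 21 bases from RPL21, a ribosomal protein gene on the opposite strand, which was between 225 and 268 FPKM in all 6 libraries.

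**Figure D4:**
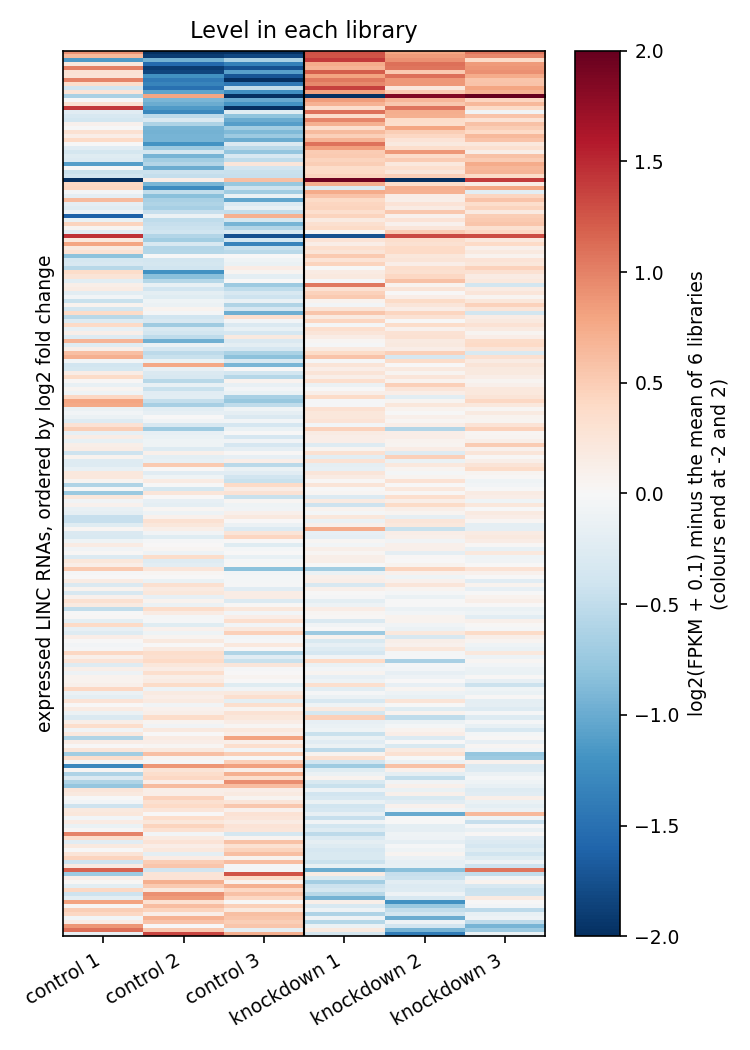
The level of the 221 LINC RNAs in each library as log2(FPKM + 0.1) minus the mean of the 6 libraries, 1 row for each RNA, ordered by log2 fold change, with a line between controls and knockdowns. In many of the top rows control 1 is coloured like the knockdowns and unlike controls 2 and 3.

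Position beside a gene was then described, with the groups of distance chosen after the values were seen. In 12 of the 220 annotated LINC RNAs a protein-coding gene on the same strand ended within 5 kb upstream. Their median log2 fold change was 0.85, 5 of the 12 had a log2 fold change of at least 1, and in 9 control 1 and all 3 knockdowns lay above controls 2 and 3. With the upstream end over 5 and up to 30 kb away, the median was 0.09 and 7 of 64 had such a change, and beyond 30 kb it was 0.12 and 12 of 144. Over all 220 such a change was seen in 24, or 10.9%. LINC01730 and LINC00852 among the 12 met the level of 0.5 FPKM only through the knockdowns, so their rise was built into their choice and it enters both the median and the count. Within 5 kb on the other sides the medians were also above the 0.14 of all 220: 0.38 for 29 RNAs with an upstream gene on the opposite strand, 0.37 for 15 with a downstream gene on the same strand and 0.38 for 13 with one on the opposite strand. No difference between these groups was tested, and control 1 exceeded controls 2 and 3 by a median log2 difference of 0.49 in the 12 and of 0.48 in the 15. The genes upstream of the 12 had a median log2 fold change of 0.05.

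LINC00641 begins 2236 bases past the end of HNRNPC, which encodes an abundant nuclear RNA-binding protein of pre-mRNA. HNRNPC was at 203, 214 and 222 FPKM in the controls and at 242, 236 and 237 FPKM in the knockdowns. Control 1 was its lowest library, whereas LINC00641 in control 1 was near the knockdowns. LINC02818 begins 3843 bases past TOR1AIP2, a gene of a nuclear envelope and endoplasmic reticulum protein, which was at 10.9, 6.78 and 6.78 FPKM and 10.4, 9.23 and 9.70 FPKM. There control 1 was above all knockdowns, whereas for LINC02818 it was below all knockdowns and above controls 2 and 3. LINC01730 begins 2236 bases past CDC25B, a cell cycle phosphatase gene, which stayed between 15.1 and 18.2 FPKM.

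LINC01337, another of the 12, was at 1.47, 0.662 and 1.47 FPKM in the controls and at 3.87, 2.97 and 1.66 FPKM in the knockdowns. All 3 knockdowns were higher than all 3 controls, and its log2 fold change of 1.17 did not pass. LINC02768, past NID1, had between 0 and 11 reads a library, and its log2 fold change of 1.33 ± 1.32 had an SE of the same size. NID1, a basement membrane protein gene, fell from 45.1, 60.6 and 56.5 FPKM to 34.4, 36.3 and 33.8 FPKM, by a log2 fold change of -0.62 with an adjusted p of 0.0402 by limma. The others of the 12 were LINC00665, LINC01535, LINC01569, LINC01772, LINC01551, LINC00852 and LINC00324, with log2 fold changes between 0.14 and 0.99. Without control 1, LINC01535 changed sign, to a log2 fold change of -0.19 ± 0.10, and the rest of the 12 stayed above 0.

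**Figure D5:**
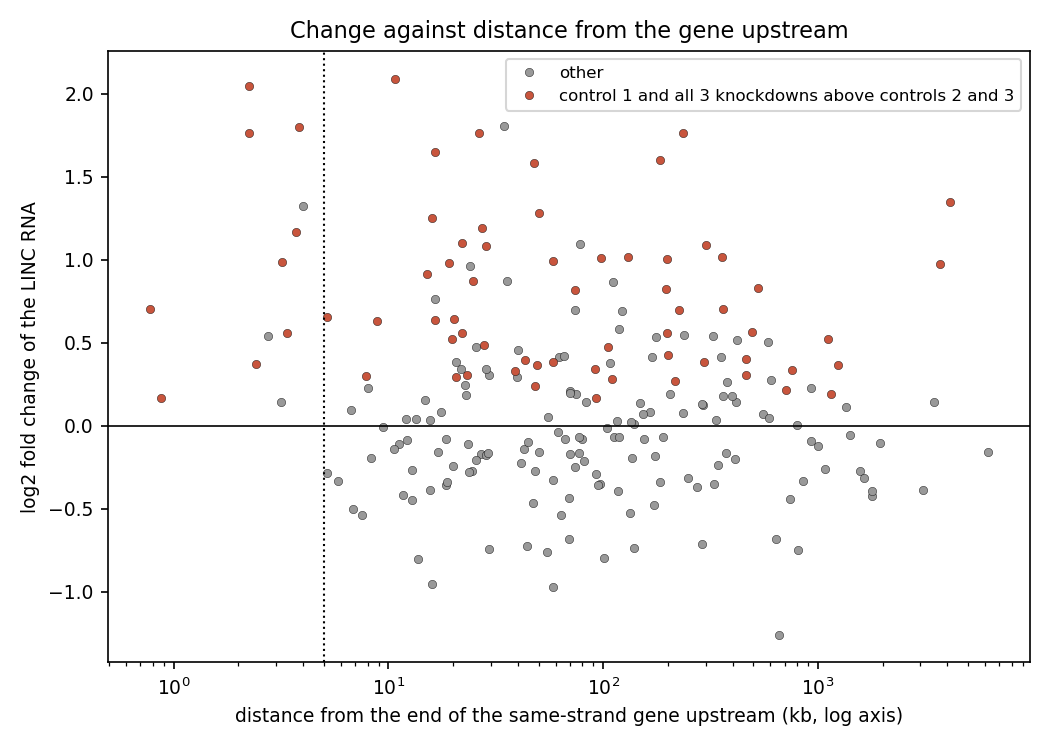
The log2 fold change of each LINC RNA against the distance from the end of the protein-coding gene upstream on the same strand, in kb on a log axis, with a dotted line at 5 kb. Red points are RNAs whose control 1 and knockdowns all lay above controls 2 and 3. With all 6 libraries in the fit, all 12 points left of the line are above 0.

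The LINC RNAs that start within 1 kb of a protein-coding gene on the opposite strand formed 20 pairs, and in 19 the partner was tested. The log2 fold changes of the pair had the same sign in 11 of the 19, where 60.2% of the LINC RNAs and 57.6% of all genes tested were above 0. ZNF41 and FAM207A were the 2 partners of the 19 past the test, beside 6.2% of all genes. FAM207A, 97 bases from LINC01547, rose from 10.7, 8.82 and 8.94 FPKM to 14.5, 15.5 and 15.4 FPKM. LINC01547 was at 1.21, 1.19 and 1.40 FPKM and 2.15, 1.70 and 1.82 FPKM, higher in every knockdown, with a log2 fold change of 0.54 ± 0.15 and an adjusted p of 0.0727 that did not pass. SETD1B, a histone H3 lysine 4 methyltransferase gene 274 bases from LINC01089, was at 4.39, 2.67 and 2.38 FPKM and 6.40, 5.82 and 5.94 FPKM. LINC01089 was at 0.380, 0.382 and 0.381 FPKM and 0.761, 0.666 and 0.942 FPKM, but 41.7% of its exon bases are shared with RHOF and 48.7% with another long non-coding RNA, and neither LINC01089 nor SETD1B passed by limma on FPKM. LINC01089 met the level only through the knockdowns, and limma-voom called it with an adjusted p of 0.0243. In the authors' deposited table its adjusted p is 0.0362.

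The 23 LINC RNAs of the antisense class, which cross a protein-coding gene on the other strand or lie close to one, had a median log2 fold change of 0.42, and 20 of 23 were above 0, beside 60.2% of all the LINC RNAs and 57.6% of all genes tested. Only LINC02569 passed. In 11 of the 23, control 1 and all 3 knockdowns lay above controls 2 and 3, beside 30.3% of the LINC RNAs and 32.5% of all genes. The class rested on few reads, with a median total of 132 beside 570 for all the LINC RNAs. Its median SE was 0.339 beside 0.249. How many of the 23 met the level only through the knockdowns is not given here, and any that did had to rise. The difference between this class and the others was not tested. LINC00632, the host transcript of the brain circular RNA CDR1as, has 28876 exon bases and 955 to 1594 reads a library. It was at 1.54, 1.15 and 1.21 FPKM in the controls and at 1.44, 1.54 and 1.48 FPKM in the knockdowns, with control 1 at the level of the knockdowns. The values are for the whole gene, of which 789 exon bases are shared with CDR1 on the opposite strand. Reads from CDR1 or from the circular RNA cannot be told apart from those of the host transcript.

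How the rows met the level of 0.5 FPKM bears on their differences. In 145 of the 221 all 6 libraries reached it, and there the median log2 fold change was 0.08, with 3 rising and 2 falling. In 8 the 3 knockdowns alone reached it, and these had to be higher in the knockdown: LINC02158, LINC00852, LINC01058, LINC01089, LINC00921, LINC01730, LINC02062 and LINC01363, with log2 fold changes from 0.87 to 1.81. In LINC02352 the 3 controls alone reached it. In 30 of the 221 some library had under 10 reads.

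The values at the edge of the rule were as follows. LINC00479, LINC02594 and LINC02525 were just inside, with third-highest levels of 0.501, 0.502 and 0.503 FPKM. LINC00479 was at 0.0646, 0.639 and 0.613 FPKM in the controls and at 0.145, 0.501 and 0.230 FPKM in the knockdowns. Just outside were LINC01238 under its identifier ENSG00000261186, LINC00893 and LINC00404, with third-highest levels of 0.494, 0.490 and 0.487 FPKM. LINC00893 was at 0.389, 0.998 and 1.25 FPKM in the controls and at 0.291, 0.490 and 0.299 FPKM in the knockdowns.

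The authors' deposited table called 22 of the 221 at its adjusted p under 0.05, 10 higher and 12 lower in the knockdown, or 9.95%, beside 14.7% of the genes tested here that have a value there, 5.78% higher and 8.93% lower. It shares 5 of the 7 calls of limma. In the authors' deposited table LINC00680 again had the smallest adjusted p of these, 1.17e-04, while LINC01058 and LINC02569 had 0.150 and 0.160. The deposited fold changes have another centre: their median is 0.02 for the LINC RNAs and -0.06 for all genes tested, in the authors' deposited table, and 18 of the 221 have the opposite sign there.

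The machinery that trims and degrades non-coding RNA was described from a list of 47 genes, all of them tested. UPF2, a core factor of nonsense-mediated decay, and ZCCHC7, a subunit of the complex that adds short tails to nuclear RNA for the exosome, rose, and the other 45 did not pass, a share of calls that is not above the 6.2% of all genes tested. UPF2 was at 21.5, 20.9 and 21.1 FPKM in the controls and at 26.0, 25.6 and 24.9 FPKM in the knockdowns, with a log2 fold change of 0.27 and an adjusted p of 0.0457. ZCCHC7 was at 12.7, 11.2 and 11.1 FPKM and 16.0, 15.1 and 14.7 FPKM, with a log2 fold change of 0.39 and an adjusted p of 0.0466. Both calls stood at small changes in groups that did not overlap. RBM7, UPF3A, MPHOSPH6 and EXOSC1 came next by p, with adjusted p-values between 0.0506 and 0.0603, and did not pass. The list's median log2 fold change was 0.10, beside 0.07 over all genes tested, and for the 13 exosome subunits and cofactors it was -0.10. With size factors neither UPF2 nor ZCCHC7 passed, nor did they with any 1 library other than control 1 left out. Without control 1, 18 of the 47 rose and 7 fell, where 28% of all genes rose and 15.7% fell.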

How the data were processed

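Poly(A) RNA was taken with oligo-dT beads from TRIzol extracts and made into cDNA without a record of strand, per the labels' protocols. The submitters' processing notes name HISAT2 without a version. For the genome build, the annotation, the read counter and the authors' test, the state is: not given in the sources used here. Each library has FPKM values made by the authors, judged from their sums, which run from 271337 to 276464. The table further holds, as deposited, a mean read signal for each group, a log2 fold change and p-values and adjusted p-values, per the file headers. All 6 value columns matched a sample title.

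Reads were recovered from ratios of the FPKM values and the group means with Python 3.11.15 and pandas 2.3.3. Within a tolerance of 0.1 read 100% of values above 0 were whole. One FPKM step in a 1 kb model is 0.0208 to 0.0437 FPKM. Precision is limited by counting error at low levels, and intervals are not given for single libraries because groups are replicated. Every pair of libraries differed by more than sampling noise, with a chi-square of 3.77 a gene for the closest.

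At a level of 0.5 FPKM or more in 3 or more libraries, 18548 genes entered limma 3.58.1 in R 4.3.3 (mean-variance trend, log2(FPKM + 0.1), two-sided, Benjamini-Hochberg over all genes). Fold changes on that scale understate the change of low genes. The script was tested on simulated data. Positions and overlaps are from GENCODE 29 on GRCh38 by gene identifier, and promoters from RefSeq by symbol. Alternatives were size factors, other pseudocounts and filters, limma-voom on recovered reads, no trend, a stricter threshold, the replicate number as a block and each library left out.

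The LINC RNAs, the lists and the tests were chosen with earlier results of these data known. Named were those past the test, the 10 highest by level, the 3 nearest to the level rule on each side, the 5 largest changes that did not pass and their neighbours, plus others said to have been picked after their values were seen, which include every pair, position group and antisense gene named. Single-gene results of some neighbours and markers are not reported here. Of 9 LINC symbols known for small open reading frames or since renamed, 0 are in the table. A planned correlation with HSPA6, ATF3 and LINC00894 over the 6 libraries was not computed, because the libraries fall into separate clusters.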

Additional observations from a re-analysis of the deposited data

How the results depend on the processing

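Counts of expressed LINC RNAs past the test, higher and lower, were 5 and 2. They were 2 and 2 with size factors, 7 and 2 with a pseudocount of 1 FPKM, 0 and 0 with no filter, 3 and 2 with a filter at 1 FPKM, 29 and 4 with limma-voom on recovered reads, 1 and 0 without a trend, and 0 and 0 at an adjusted p under 0.01, with 66 at an unadjusted p under 0.05 there and with no filter. Leaving out single libraries gave a range of 0 to 53 higher and 0 to 24 lower, the high ends without control 1 and 0 without any other. For all genes, 768 higher and 382 lower became 475 and 486, 978 and 451, 25 and 17, 954 and 514, 2322 and 826, 65 and 26, and 0 and 0 in the same order, and 0 to 5187 and 0 to 2906 with 1 library left out. For the RNA decay list, 2 and 0 became 0 and 0 with size factors, and 0 to 18 and 0 to 7 with 1 library left out. The cause was not tested, except that the fits without a library have fewer samples and that without a filter 40111 genes were tested. The 7 RNAs that passed kept their sign in every setting they entered; LINC01058 was not in the fit with the filter at 1 FPKM.

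The replicate numbers did not pair the libraries: deviations of same-numbered libraries correlated at 0.15, 0.08 and 0.04. With the replicate block, 0 LINC RNAs passed in either direction, with 62 at an unadjusted p under 0.05, and the smallest adjusted p was 0.0541; 0 of all genes passed, with 5990 at an unadjusted p under 0.05.

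For the LINC RNAs named by rule, 294 values were recomputed: 214 kept direction and side of the threshold, 59 kept direction and no longer passed, 14 came to pass, and 7 changed sign, none of which had passed. LINC00674 was -0.019 with size factors and ran from -0.058 to 0.14 with 1 library left out. LINC00479 ran from -0.99 to 0.090, LINC02594 from -0.0084 to 0.38 and LINC02525 from -0.031 to 0.82. Depth limits the RNAs with under 10 reads in a library.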
